A study of Mus musculus with 4 samples.

Results

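The genes described here encode the factors that start and extend protein synthesis in the cytosol, together with the cytosolic poly(A)-binding proteins. They were taken as all genes whose probes carried a single symbol beginning with Eif1 to Eif6, with Eef1 or Eef2, or with Pabpc. This gave 56 of the 13410 named genes on the array, with 77 probes, and 46 of them had values on at least 3 of the 4 arrays and were tested, among 8384 genes tested in all. Each array set amplified lung RNA of 1 bleomycin-treated mouse of the inbred strain A/J against 1 shared pool, made of amplified lung RNA of control animals of that strain, so the mice numbered 1 to 4 form 1 group of 4 replicates. Bleomycin is a DNA-damaging drug that injures the lung. The labels give no dose, route, time, age or sex, and no number of mice in the pool. Because the pool is 1 control sample, every p-value below rests on the spread between the treated mice, with none of the variation among controls in it.

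In cap-dependent translation, eIF4E binds the cap of an mRNA and eIF4G joins it to the RNA helicase eIF4A and to poly(A)-binding protein on the tail. eIF3 holds the small ribosomal subunit on the mRNA, and eIF2 brings the initiator tRNA. eIF2 is recharged with GTP by eIF2B and blocked by the eIF2 kinases under stress. Once the ribosome has started, eEF1A delivers each aminoacyl-tRNA and eEF2 moves the ribosome along.

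Each value is the deposited log ratio of a spot, read as log2, with the median of each array set to 0. No label says which RNA is the numerator. By the order of the titles it would be the treated mouse, but this is not settled. Results are therefore worded as above or below 0, and every sign would turn if the control pool were the numerator. Fold sizes hold only if the logarithm has base 2, which no label gives. The spots with a value numbered 12136, 11373, 9427 and 10282 for mice 1 to 4, and array medians before centring lay between -0.009 and 0.029. Over all genes, the arrays of mice 3 and 4 correlated at 0.855 (Pearson, 6726 genes) and those of mice 1 and 2 at 0.715 (7715 genes), against 0.431 to 0.558 for the other 4 pairs. Genes are not independent replicates, and these values describe the arrays only. A log ratio gives no level of expression, so the lung identity of the samples could not be judged from levels; 8 of 9 markers of lung cells had values on at least 3 arrays. Of these, 4 passed limma, against 12.5% of all genes, with a list median of 0.76 and values from -0.80 to 2.02. The markers were chosen with earlier results of these data known, so this count is not a test. The surfactant gene Sftpa1 (mean 1.28) and the endothelial genes Tek (1.18) and Pecam1 (1.07) passed above 0, and Aqp5, an epithelial water channel gene, below it (-0.35). Pecam1 was lost without mouse 4, and Aqp5 in each fit without a mouse and with the pair block. Markers of like cells differed. Ager, another alveolar epithelial gene, had 1.30, 0.15, 2.02 and 1.18 in mice 1 to 4. It did not pass in the main fit (limma adjusted p = 0.0521). Ager passed without mouse 2 (adjusted p = 0.0228), with only genes of 4 values (0.0456) and with only probes present on all arrays (0.0442). The surfactant genes Sftpc and Sftpd and the club cell gene Scgb1a1 had values on both sides of 0 and did not pass. The part of the cell makeup of the lungs in the values of the translation factors was not tested. In whole lung, fewer cells of a type and less RNA per cell cannot be told apart.

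Translation factor genes lay on both sides of 0, with Pabpc1, Eef1a1, Eif4a2 and Eef2 farthest above it among those that passed the test and Eif4e and Eif5a farthest below. Of the 46 tested, 11 passed limma at an adjusted p of at most 0.05, 7 above 0 and 4 below, or 23.9%. The background over all 8384 genes was 12.5% on either side, 7.69% above and 4.81% below 0. At an unadjusted p under 0.05 there were 20 members, 43.5%, against 31.8% of all genes. The median of the 46 means was 0.03, and that of all genes was 0.00. By mouse, the median over the members was 0.05, -0.05, 0.16 and 0.08 in mice 1 to 4. All values of a gene lay on the same side of 0 for 24 members (52.2%), 15 above and 9 below, against 46.7% of all genes. Of the 35 members with 4 values, only Pabpc1 exceeded a 2-fold difference on all 4 arrays, as did 0.528% of the 6057 genes with 4 values.

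**Figure D1:**
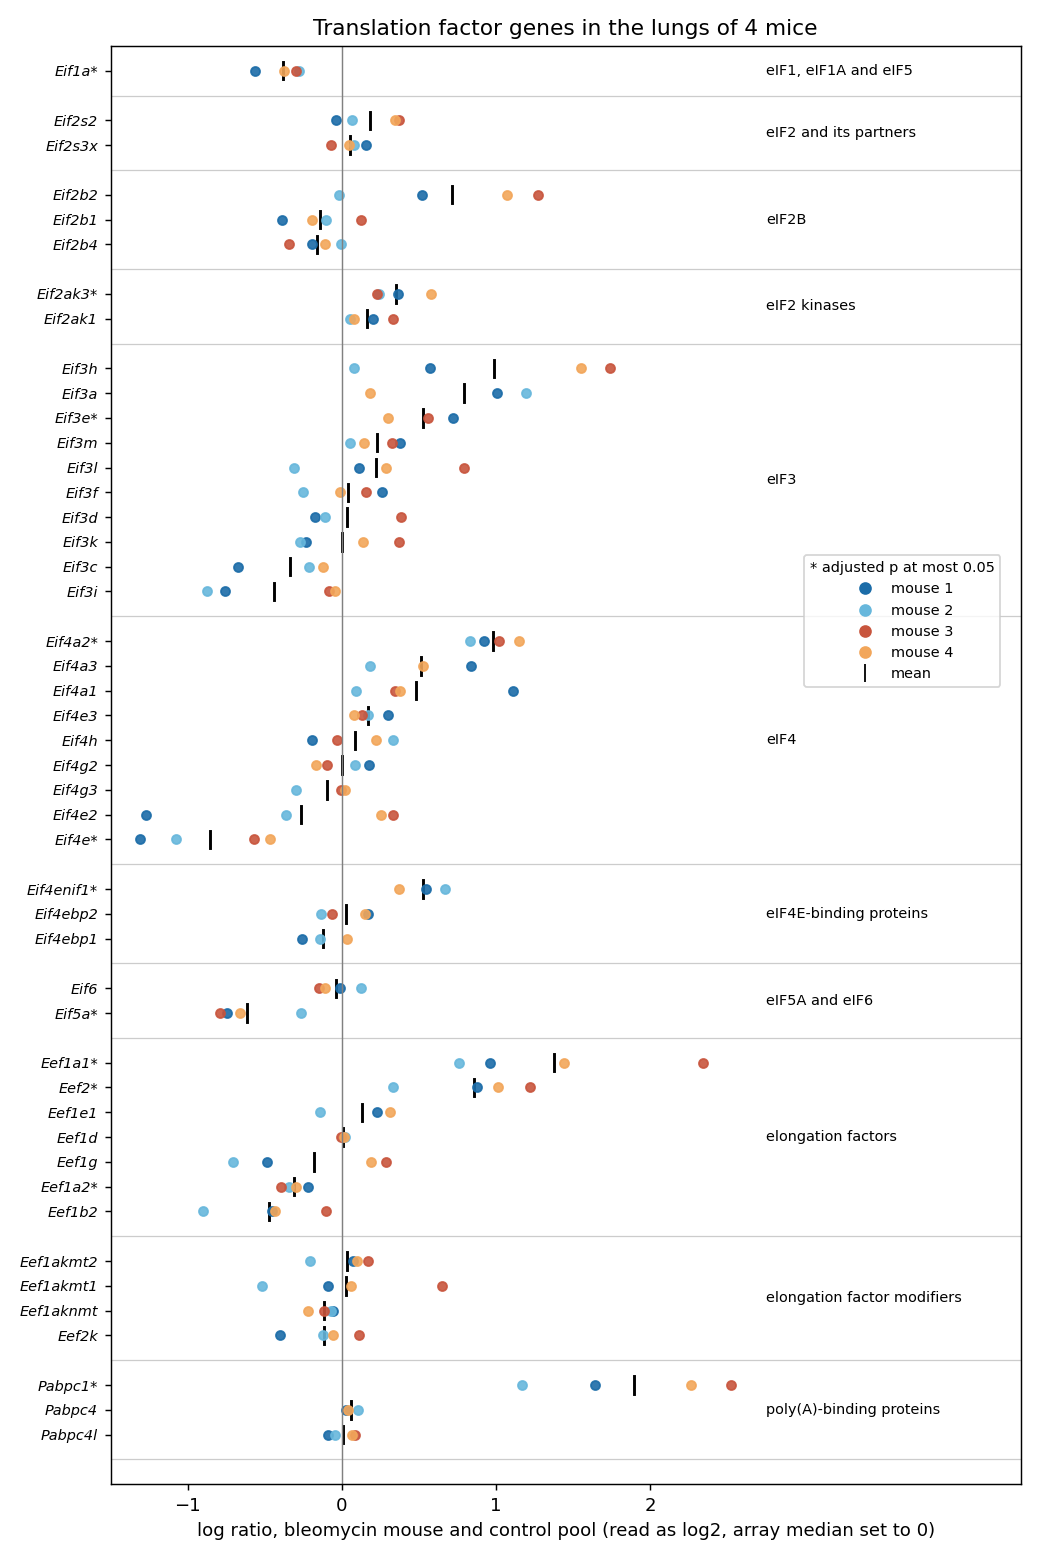
Log ratio (x axis, read as log2) of each of the 46 tested genes (y axis, by group), with 1 point per mouse and a black bar at the mean; an asterisk marks an adjusted p of at most 0.05. Pabpc1 is the farthest above 0, with values of 1.17 to 2.52, and the eIF3 and eIF4 groups reach to both sides of 0.

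The calls rest on few arrays. Pabpc1 and Eif4a2 passed limma whichever mouse was left out. Eef1a1 passed without mouse 2 or 3, Eef2 and Eif5a only without mouse 2, and Eif4e only without mouse 4. Eif1a, Eef1a2, Eif3e, Eif4enif1 and Eif2ak3 passed in none of these 4 fits. Genes with 3 values rest on 2 in the fits that leave out a mouse in which they have one. The number of members that passed was 2, 7, 3 and 4 without mouse 1, 2, 3 and 4, against 11 with all 4 mice. Calls were lost over all 8384 genes too, with 317, 573, 296 and 333 in these fits, against 1048. With mice 1 and 2, and mice 3 and 4, as a random block, 4 members passed: Pabpc1, Eif4a2, Eef2 and Eif4e. Over all genes 402 passed in that fit. These pairs come from the resemblance of the arrays, and the labels do not give them.

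**Figure D2:**
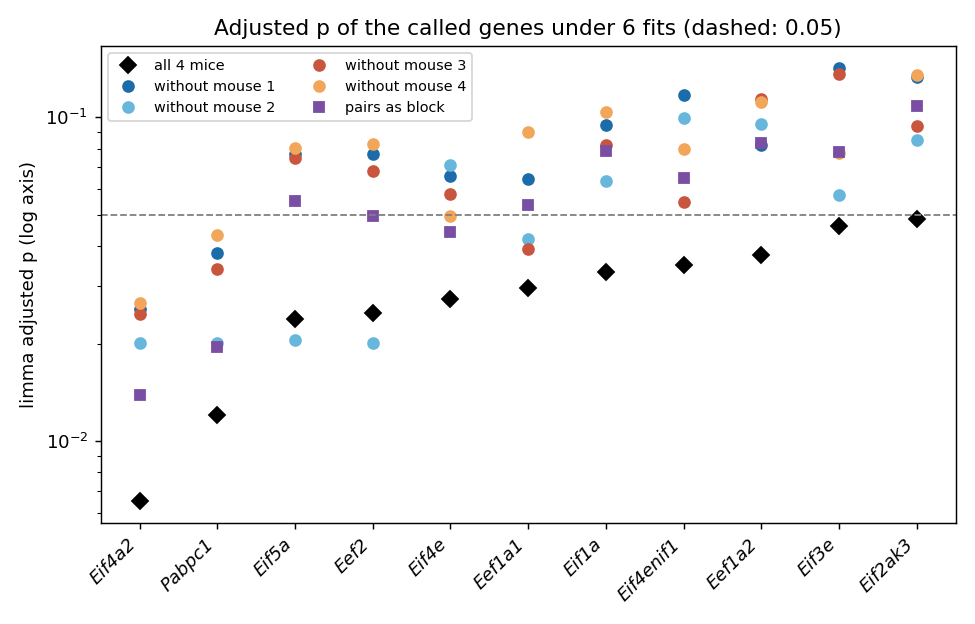
Limma adjusted p (y axis, log scale) of the 11 genes that passed with all 4 mice, in that fit (diamonds), without each mouse (circles) and with the pairs of mice as a random block (squares); the dashed line is 0.05. Eif4a2 and Pabpc1 lie under the line in every fit shown, and the other 9 genes cross it in at least 1.

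Among the poly(A)-binding proteins, Pabpc1 stood far from 0 while both other tested genes stayed near it. Pabpc1 encodes the main cytosolic protein on poly(A) tails, which binds eIF4G and stabilises mRNA. Its log ratios were 1.64, 1.17, 2.52 and 2.26 in mice 1 to 4, highest in mice 3 and 4 and lowest in mouse 2, with no value near 0. The mean was 1.90 ± 0.61 (SD, n = 4), a 3.72-fold difference, with a limma adjusted p of 0.0121. Pabpc4, a second cytosolic poly(A)-binding protein, had 0.02, 0.10 and 0.04 in mice 1, 2 and 4, and the 95% interval of its mean ran from -0.14 to 0.26. Pabpc4l, a related gene, lay between -0.09 and 0.09, with an interval from -0.16 to 0.17. Neither interval reaches the one of Pabpc1, which ran from 1.34 to 2.46. Pabpc2 had 1 value, 0.07 in mouse 2, and Pabpc6 had 0.35 in mouse 1 and -0.07 in mouse 3, so that neither was tested. Probe sequences were not used here, so signal from close relatives, such as Pabpc1 and Pabpc4 or Eef1a1 and Eef1a2, and from pseudogenes could not be told apart.

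The elongation factors divided. Eef1a1 and Eef2 passed above 0, Eef1a2 passed below, and the 4 other subunits did not pass. Of all genes, 12.5% passed on either side, and 7 tested genes are too few to compare with that share. Eef1a1, which encodes the common form of the tRNA carrier eEF1A, had 0.96, 0.76, 2.34 and 1.44 in mice 1 to 4. Every value was above 0, that of mouse 3 by far the highest. The mean was 1.37 ± 0.71 (SD, n = 4; limma adjusted p = 0.0298), and without mouse 3 it was still past the test, at an adjusted p of 0.0390. It was lost without mouse 1 or 4, at adjusted p of 0.0644 and 0.0899. Eef2, the translocase gene, had 0.88, 0.33, 1.22 and 1.01, with mouse 2 the lowest. Its mean was 0.86 ± 0.38 (SD, n = 4; limma adjusted p = 0.0248), lost without mouse 1, 3 or 4 at adjusted p up to 0.0827.

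Eef1a2, the form of eEF1A found in striated muscle and neurons, had -0.22, -0.34, -0.40 and -0.30 in mice 1 to 4, a narrow band below 0 that did not overlap with that of Eef1a1 on any array. Its mean was -0.31 ± 0.08 (SD, n = 4; limma adjusted p = 0.0374), which was lost in each fit without a mouse, at adjusted p up to 0.114. Markers of striated muscle and fat also had means below 0: 9 of 10 passed there, against a background of 4.81%, with list medians of -2.37, -0.43, -2.80 and -1.99 in mice 1 to 4. These markers were chosen with earlier results of these data known, so their count is not a test. The list is mixed. The marker that did not pass, the cardiac myosin gene Myh6, had -1.64, 0.97, -0.47 and 0.45 in mice 1 to 4, on both sides of 0. Tnnc2, a fast skeletal muscle troponin gene, had -4.96, -5.50 and -4.24 in mice 1, 2 and 4, and Myl1, a skeletal myosin light chain gene, had -3.86, -2.48, -2.80 and -2.49 in mice 1 to 4. Adipoq, the fat hormone adiponectin, had -1.83, -0.12, -2.19 and -2.21, with mouse 2 close to 0. Only Tnnc2 and Myl1 passed with the pair block, and 2 of the 10 passed without mouse 1, 3 or 4, while 9 passed without mouse 2. The part of muscle or fat RNA in the Eef1a2 value was not tested.

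The subunits of the exchange factor for eEF1A lay below Eef1a1 on every array with a value. Eef1b2, the catalytic subunit, had -0.46, -0.90, -0.10 and -0.43 in mice 1 to 4, all below 0, and did not pass (limma adjusted p = 0.0702). Eef1g, the structural subunit, was at -0.49 and -0.71 in mice 1 and 2 but at 0.28 and 0.19 in mice 3 and 4 (limma adjusted p = 0.547). Eef1d, another exchange subunit, had 0.02, -0.01 and 0.01 in mice 2, 3 and 4, the closest to 0 of the group. Eef1e1, a part of the multi-tRNA synthetase complex named after eEF1, had 0.23, -0.14 and 0.31 in mice 1, 2 and 4. Of the 4 tested genes for enzymes that modify elongation factors, 0 had an unadjusted p under 0.05, against 31.8% of all genes. None of the 4 passed, with means from -0.12 to 0.03. These were Eef2k, the kinase that inhibits eEF2, at -0.12, the eEF1A methyltransferase genes Eef1akmt1 and Eef1akmt2 at 0.02 and 0.03, and Eef1aknmt at -0.12. The 2 probes of Eef1aknmt differed. One had 0.07, 0.01, -0.12 and -0.22 in mice 1 to 4, and the other -0.18 and -0.15 in mice 1 and 2 only.

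RefSeq start sites (GRCm38.p6) were available for 8 of the 11 genes that passed, and the 250 bases before the start were searched on both strands for the heat shock element GAANNTTC, the E-box CACGTG and the TATA box TATAAA. Eef1a1, Eif4a2 and Eef2 are shown because their means were the largest above 0 among the passing genes in the table, with matches in capitals. They come from chr9:78481725-78481974 (minus strand), chr16:23107218-23107467 (plus) and chr10:81176381-81176630 (plus).
Eef1a1: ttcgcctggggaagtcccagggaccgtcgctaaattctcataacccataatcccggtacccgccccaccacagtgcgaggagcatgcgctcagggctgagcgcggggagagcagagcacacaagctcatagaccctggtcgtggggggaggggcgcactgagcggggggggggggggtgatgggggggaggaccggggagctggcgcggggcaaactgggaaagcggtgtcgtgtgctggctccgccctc
Eif4a2: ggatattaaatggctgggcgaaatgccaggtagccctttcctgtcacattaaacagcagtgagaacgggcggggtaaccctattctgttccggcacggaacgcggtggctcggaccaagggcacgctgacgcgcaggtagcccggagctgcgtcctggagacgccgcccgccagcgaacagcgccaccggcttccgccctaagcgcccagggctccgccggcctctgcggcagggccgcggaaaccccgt
Eef2: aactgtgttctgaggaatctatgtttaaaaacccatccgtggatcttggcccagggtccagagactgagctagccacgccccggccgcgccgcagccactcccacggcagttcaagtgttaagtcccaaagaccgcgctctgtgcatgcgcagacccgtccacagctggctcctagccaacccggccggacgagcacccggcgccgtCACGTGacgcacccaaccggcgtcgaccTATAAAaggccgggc
Eef2 held an E-box starting at position -43 and a TATA box at position -15, counted from the start, and the Eef1a1 and Eif4a2 windows held none of these letters. An E-box also stood before Eif4e and Eif5a, both below 0, so that it occurred on either side. The Eif4e match at position -64, before 1 of its 2 starts in the table, lies in chr3:138527192-138527221 (plus strand), shown with its flanks as the counterpart to Eef2.
Eif4e: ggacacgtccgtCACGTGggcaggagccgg
Of all 32851 windows in the table, 6.02% held the E-box, 12.4% the TATA box and 6.69% the heat shock element. Counted by gene, with a match before any of its starts, these were 6.86%, 14.3% and 7.73% of 27025 genes. Of the 8 genes that passed, 3 held an E-box, 1 a TATA box and 0 the heat shock element. Among all 34 tested members in the table, passing or not, the numbers were 9, 3 and 3. Genes with more starts have more windows in which to match. A match is a run of letters and does not show binding.

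Among the eIF4 genes, the helicase gene Eif4a2 passed above 0 and the cap-binding gene Eif4e below it, with 7 others not past the test. The share over all genes was 12.5% on either side. Eif4a2 had 0.92, 0.83, 1.02 and 1.15 in mice 1 to 4, with mean 0.98 ± 0.14 (SD, n = 4), a 1.97-fold difference. Its limma adjusted p of 0.00653 was the smallest of the 46 genes. It was spotted 17 times in consecutive positions, so its values can be checked within each array. The 17 spots ranged from 0.75 to 1.13 in mouse 1, from 0.55 to 1.26 in mouse 2, from 0.59 to 1.42 in mouse 3 and from 0.91 to 1.30 in mouse 4. All spot values were above 0, and each of the 17 spots tested by itself passed limma, at adjusted p from 0.00399 to 0.00907. Over all 9909 probes, 12.8% passed on either side and 8.09% above 0. The 17 spots are repeats of 1 gene on the same 4 arrays, so their passes count as 1 result and not as 17. The SD between single spots was 0.10, 0.16, 0.20 and 0.12 in mice 1 to 4. The SD between the 4 mouse means was 0.14, but each of these averages 17 spots, so it is not a like measure.

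**Figure D3:**
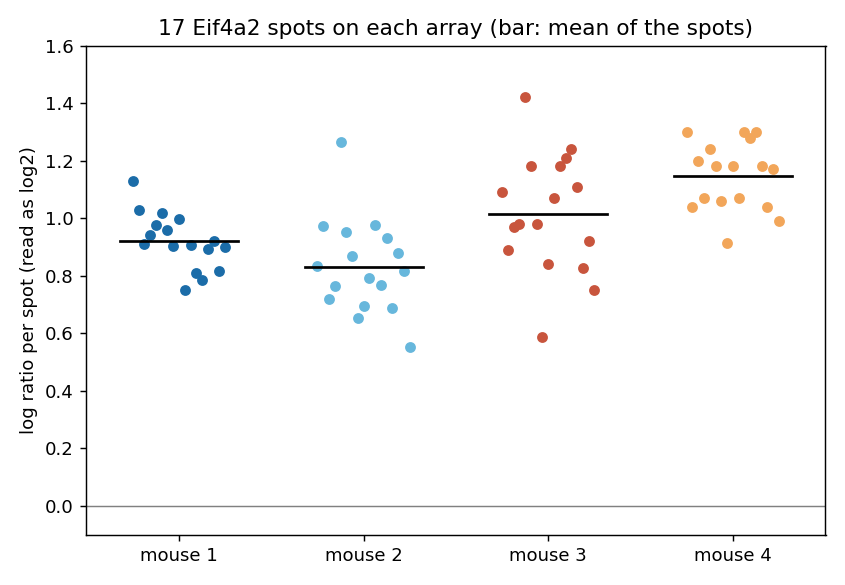
Log ratio (y axis, read as log2) of the 17 Eif4a2 spots on the array of each mouse (x axis), in the order of their position, with a bar at the mean of the spots. The mouse means lie between 0.83 and 1.15, and the lowest of all spots is at 0.55, in mouse 2.

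This bears on the genes with a single probe, which are 41 of the 46 tested and 10 of the 11 that passed. The array held 9 more genes spotted 17 times each. In these the SD between spots of 1 array had a median of 0.223 over 36 values, from 0.102 to 1.09. Among the 41 genes with 1 probe, 19 varied less than 0.223 between mice. With 1 spot on each array, the spread between mice and the error of a spot could not be told apart for any of the 41, under that value or over it.

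Eif4e, which encodes the cap-binding protein, had -1.31, -1.07, -0.57 and -0.47 in mice 1 to 4, all below 0 and farther so in mice 1 and 2. The mean was -0.86 ± 0.40 (SD, n = 4; limma adjusted p = 0.0274), and it was lost without mouse 1, 2 or 3 at adjusted p up to 0.0711. Neither of its tested relatives passed. Eif4e2, which competes for the cap, had -1.27, -0.37, 0.33 and 0.26 (limma adjusted p = 0.550), below 0 in mice 1 and 2 and above in mice 3 and 4. Eif4e3, another cap-binding relative, lay between 0.08 and 0.30 (limma adjusted p = 0.157).

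The helicase genes related to Eif4a2 had means on the same side but more spread. Eif4a1, the more abundant eIF4A form in most tissues, had 1.11 in mouse 1 and 0.09, 0.34 and 0.37 in mice 2 to 4, mean 0.48 ± 0.44 (SD, n = 4; limma adjusted p = 0.118). Eif4a3, a subunit of the exon junction complex, had 0.84, 0.18 and 0.53 in mice 1, 2 and 4 (limma adjusted p = 0.0836). Both were above 0 on each array with a value and neither passed. No probe carried the symbol Eif4g1 alone. The eIF4G family genes Eif4g2 and Eif4g3 had means of -0.00 and -0.10, and Eif4h, a helper of the helicase, had 0.08. Their 95% intervals lay inside -0.36 to 0.34. The other helper, Eif4b, had -0.11 and -0.14 in mice 1 and 2 and was not tested.

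Of 3 genes for proteins that bind eIF4E, 1 passed, against 12.5% of all genes, and 3 genes are too few to compare shares. Eif4enif1, which encodes the eIF4E transporter and represses bound mRNA, had 0.54, 0.66 and 0.37 in mice 1, 2 and 4 and none in mouse 3. Its mean was 0.53 ± 0.15 (SD, n = 3; limma adjusted p = 0.0349), on the opposite side of 0 from Eif4e in each of these mice. It was lost in each fit without a mouse, at adjusted p from 0.0548 to 0.117. The fit without mouse 3, where its own values are the same, gave 0.0548. Eif4ebp1 and Eif4ebp2, the inhibitors of eIF4E that mTOR kinase controls, did not pass, with means of -0.12 and 0.03 and 95% intervals inside -0.36 to 0.23.

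The eIF3 subunits had means from -0.44 to 0.99, 8 above and 2 below 0. Of 12 genes with a probe, 10 were tested and 1 passed, Eif3e above 0, against a background of 12.5%. Eif3e had 0.72, 0.56 and 0.30 in mice 1, 3 and 4, mean 0.53 ± 0.21 (SD, n = 3; limma adjusted p = 0.0462). It was lost in each fit without a mouse, at adjusted p from 0.0576 to 0.142, the lowest without mouse 2, where it has no value. Eif3h was at 0.57 and 0.08 in mice 1 and 2 and at 1.74 and 1.55 in mice 3 and 4. Its mean of 0.99 was as large as that of Eif4a2, but with an SD of 0.79 it did not pass (limma adjusted p = 0.0802), except without mouse 2 (adjusted p = 0.0489). Eif3a, the largest subunit, had 1.01, 1.19 and 0.18 in mice 1, 2 and 4 (limma adjusted p = 0.0792), and passed without mouse 4 (adjusted p = 0.0394), a fit that rests on its 2 values in mice 1 and 2. So Eif3h was highest in mice 3 and 4, and Eif3a in mice 1 and 2.

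Below 0, Eif3i had -0.76, -0.87, -0.08 and -0.05 in mice 1 to 4 and did not pass (limma adjusted p = 0.140), with mice 3 and 4 close to 0. Eif3c, a core subunit, had -0.68, -0.21 and -0.12 in mice 1, 2 and 4 (limma adjusted p = 0.165). Eif3d, Eif3f, Eif3k, Eif3l and Eif3m had means between 0.00 and 0.23, and none passed. Eif3k was at -0.23 and -0.27 in mice 1 and 2 and at 0.37 and 0.14 in mice 3 and 4, so its mean of 0.00 hides a difference between the arrays. Eif3b and Eif3j1 had no value on any array.

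Neither tested subunit of eIF2 passed, nor did any of 3 tested subunits of eIF2B. At an unadjusted p under 0.05 there were 0 and 1 of them, against 31.8% of all genes. Eif2s2 had -0.04, 0.07, 0.37 and 0.34 in mice 1 to 4 (limma adjusted p = 0.234), and Eif2s3x lay between -0.07 and 0.16. The Y-linked copy Eif2s3y had values in mice 1 and 2, -0.36 and -0.25, and was not tested. In eIF2B, Eif2b2 was at 0.52 and -0.02 in mice 1 and 2 and at 1.27 and 1.07 in mice 3 and 4, the same order as in Eif3h. It did not pass (mean 0.71 ± 0.58, SD, n = 4; limma adjusted p = 0.0870), except without mouse 2 (adjusted p = 0.0422). Eif2b1 and Eif2b4, subunits of the same complex, had means of -0.14 and -0.16 (limma adjusted p = 0.368 and 0.214).

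Of the eIF2 kinases, Eif2ak3, which encodes the endoplasmic reticulum stress sensor PERK, had 0.37, 0.24, 0.22 and 0.58 in mice 1 to 4. All were above 0, with mean 0.35 ± 0.16 (SD, n = 4; limma adjusted p = 0.0486). This was barely past the threshold, and it was lost in each fit without a mouse (adjusted p from 0.0850 to 0.135), with a robust prior (0.0501) and with genes of 2 values added (0.0509). Eif2ak1, the heme-regulated kinase, had a mean of 0.16 (limma adjusted p = 0.194), and its 2 probes averaged 0.20 and 0.06. Eif2ak2 and Eif2ak4 had a value in mouse 1 only, -0.19 and 0.30. Of 12 tested genes that respond to eIF2 phosphorylation, 1 passed, against a background of 12.5%: Chac1, a glutathione-degrading enzyme, below 0 at -0.70 ± 0.25 (SD, n = 4; limma adjusted p = 0.0188). It was lost without mouse 1, 2 or 3, at adjusted p up to 0.0587. Atf4 and Ddit3 are added for their roles, with their values already seen. Atf4, the main transcription factor of that response, had a mean of 0.28 (limma adjusted p = 0.118), and Ddit3, its target, of 0.37 (limma adjusted p = 0.0524). Ddit3 passed without centring (adjusted p = 0.0449), with only genes of 4 values (0.0472) and with only probes present on all arrays (0.0461). Atf3, the highest of the list, had 0.46, 0.09, 0.90 and 0.66 in mice 1 to 4, with a mean of 0.53. It did not pass (limma adjusted p = 0.0573), except without mouse 2 (adjusted p = 0.0392) and with only probes present on all arrays (0.0497). The list had a median of -0.01, with 6 means above and 6 below 0. At an unadjusted p under 0.05 it had 5 genes, against 31.8% of all genes.

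Eif1a and Eif5a passed below 0. Eif1a, whose product helps the ribosome scan for the start codon, had -0.56, -0.28, -0.30 and -0.38 in mice 1 to 4, mean -0.38 ± 0.13 (SD, n = 4; limma adjusted p = 0.0334), lost in each fit without a mouse at adjusted p up to 0.104. Eif5a, the hypusine-bearing factor that helps the ribosome form difficult peptide bonds, had -0.75, -0.27, -0.79 and -0.66, with mouse 2 the closest to 0. Its mean was -0.62 ± 0.24 (SD, n = 4; limma adjusted p = 0.0238), lost without mouse 1, 3 or 4 at adjusted p up to 0.0805. Eif6, which keeps the ribosomal subunits apart, had a mean of -0.04 (limma adjusted p = 0.758). Its 2 probes averaged 0.01 and -0.06. Eif1ad had 1 value, -0.04 in mouse 2, and Eif1ax had none.

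**Figure D4:**
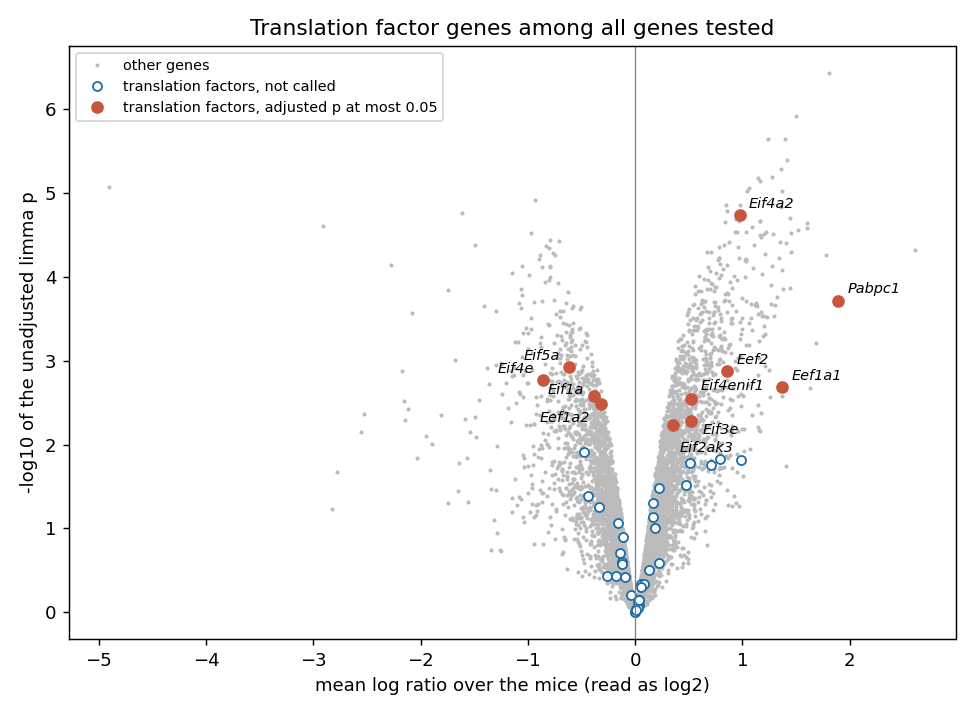
Mean log ratio over the mice (x axis, read as log2) against the -log10 of the unadjusted limma p (y axis) for all 8384 genes tested, with the 46 translation factor genes as circles, filled where the adjusted p is at most 0.05. The 7 filled circles right of 0 and the 4 left of it lie among many other genes of like size.

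Other genes of protein synthesis are read against the same background of 12.5% on either side, 7.69% above and 4.81% below 0. At an unadjusted p under 0.05 the share of all genes was 31.8%. Of 12 tested regulators of poly(A)-binding protein, of eIF4 factors and of re-initiation, 1 passed, the RNA helicase gene Ddx3x above 0, at 0.52 ± 0.19 (SD, n = 4; limma adjusted p = 0.0239, lost without mouse 1, 2 or 3 at adjusted p up to 0.0775). None of 4 termination and recycling genes, 2 mitochondrial translation factors or 10 aminoacyl-tRNA synthetase genes passed, while 2, 1 and 4 of them had an unadjusted p under 0.05. Their medians were -0.02, 0.03 and 0.21. Of 52 cytosolic ribosomal protein genes, 0 passed above 0 and 9 below, with 23 at an unadjusted p under 0.05 and a median of -0.19. That is 17.3% of them, all below 0. Of the ribosomal protein genes 5 passed with the pair block, and 6, 3, 2 and 6 without mouse 1, 2, 3 and 4, all below 0.

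Cytosolic heat shock genes passed above 0 in 6 of 9 cases, against 7.69% of all genes, and below in 0. They were chosen with earlier results of these data known, so this count is not a test. The list had 7 genes at an unadjusted p under 0.05, against 31.8% of all genes, and a median of 0.48. With the pair block 4 passed, Bag3 and Hspa4l being lost (adjusted p = 0.0675 and 0.0581), and without 1 mouse 3 or 4 did. Hspa1a, the stress-inducible chaperone gene, had 3.54, 2.62, 2.14 and 2.15 in mice 1 to 4, whereas Pabpc1 was highest in mice 3 and 4. Those Hspa1a values average spots that differed widely. The spots ran from 2.3 to 4.4, 0.1 to 4.2, 0.2 to 3.2 and -0.2 to 3.1 in mice 1 to 4. Their medians were 3.5, 2.7, 2.4 and 2.4. Hsph1, another chaperone gene, had 2.16, 2.54, 0.92 and 0.90, lower in mice 3 and 4 as well. It was lost in each fit without a mouse, at adjusted p up to 0.0905. This order did not hold for the whole list. Hspa8 had 1.00, 0.73, 1.07 and 0.93 in mice 1 to 4, and Hsp90aa1 had 1.58, 1.33 and 1.64 in mice 1, 2 and 4. Bag3 was highest in mouse 4, at 0.57, and Hspa4l lowest there, at 0.22.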

How the data were processed

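Lung RNA of 4 bleomycin-treated A/J mice was compared with 1 pool of amplified control RNA on 4 arrays of 2 channels, per the labels. The authors deposited 1 log ratio per spot, read here as log2 (values from -6.1 to 4.36); natural log was not excluded, and it would enlarge sizes and leave tests unchanged. Not given in the sources used here: scanner, dyes, background correction, normalization and the rule for empty spots. No further column of per-sample values was present (0).

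Probes were named through the platform annotation, and 2558 spots without a single symbol were left out. All 56 gene IDs matched RefSeq (GRCm38.p6) with the same symbol. Arrays were centred on their medians, probes averaged per gene, and genes with at least 3 values tested against 0 with limma 3.58.1 (R 4.3.3; lmFit, eBayes, two-sided, Benjamini-Hochberg over all genes, threshold 0.05), checked on simulated data. Intervals are 95% limma intervals. Nothing says that p-values cover more than the spread between these 4 samples. Members and lists were chosen with earlier results of these data known. All tested members could be named, and from other lists up to 4 past the test. Atf3, Atf4, Ddit3, Adipoq, Myh6, Hsph1, Hspa4l, Ager, Sftpc, Sftpd and Scgb1a1 were added after their values were seen. Alternatives were no centring, other minimum numbers of arrays, probe medians, probes present on all arrays, single probes, a robust prior, a pair block and leaving out each mouse.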

Additional observations from a re-analysis of the deposited data

How the results depend on the processing

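The count of translation factor genes past the test was 9 to 11 under no centring, other minimum numbers of arrays, probe medians, probes present on all arrays and a robust prior, against 11 as reported. It was 27 of 64 single probes (23 above and 4 below 0), of which 17 were Eif4a2 spots; the other 10 probes belong to the 10 other called genes. With the pairs of mice as a random block (correlation 0.304) it was 4, and without 1 mouse 2 to 7. Over all genes the count of 1048 became 402 with the pair block and 296 to 573 without 1 mouse, and stayed between 1002 and 1273 otherwise. No called gene changed sides in any alternative. Signs turned only for genes that had not passed. Eif4g2 was at 0.012 without centring, and Eif6 at 0.0070 with probes present on all arrays. Without 1 mouse, means ranged from -0.18 to 0.21 (Eef1akmt1), -0.014 to 0.11 (Eef1akmt2), -0.14 to 0.14 (Eif3d), -0.034 to 0.14 (Eif3f), -0.12 to 0.091 (Eif3k), -0.46 to 0.073 (Eif4e2), -0.019 to 0.083 (Eif4ebp2), -0.061 to 0.054 (Eif4g2), -0.15 to 0.0050 (Eif4g3), -0.0020 to 0.17 (Eif4h) and -0.023 to 0.035 (Pabpc4l). The cause was not tested; fits without a mouse have fewer samples. No paired analysis was possible because the labels give 1 group only. Spot brightness was not used here, which leaves the error of dim spots unknown, and the number of arrays limits the precision. Of 35 genes with 4 values, 0 had a mouse standing apart by Dixon's test.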
